A study of Drosophila melanogaster with 30 samples.

Results

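The left arm of chromosome 3 (3L) of *Drosophila* was examined for 300-bp bins that differ in MNase accessibility (MACC) between S2 cells, a cultured embryonic line, and S2 cells that express polyhomeotic (PH) proteins. Members were all bins of the arm in the dm3 genome release up to the one that starts at 21499801, which are 71667 of the 464488 bins spanned by the lists over all chromosomes. For each bin the presence and the direction of a call were read from the 3 lists that compare a pair of cell lines. Of the 71667 bins, 1365 (1.90%) are on at least 1 of these lists and 70302 are on none. The listed bins of the arm are 18.1% of the 7543 listed in the whole series.

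The groups are S2 cells that stably express a PH mutant defective in polymerization (PH-ML, PH-mut in the labels), S2 cells that stably express wild type PH (PH-WT), and unmodified S2 cells as the control. Both proteins are driven by an inducible promoter and carry a BLRP-FLAG tag, the cells keep *ph-d* and *ph-p*, their own PH genes, and each construct is represented by 1 stable line. The labels give 0.5 mM CuSO4 for all 3 groups, the S2 control included. Each line has 10 libraries, which come from 2 experiments at 5 MNase amounts (1.65, 6.25, 25, 100 and 400 U in the labels), hence 30 in all. The lists hold calls made by the authors and neither a MACC score nor a read count, and they do not separate the 2 experiments. No spread between cultures and no test can therefore be given, the depth behind a call is unknown, and the identity of the cells could not be checked against marker genes. Each share is given with its 95% Wilson interval, which covers counting error only, since neighboring bins are not independent. A bin is called PH-ML over S2 where PH-ML had the higher MACC and S2 over PH-ML where S2 did, and likewise for the other pairs.

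PH is a subunit of Polycomb Repressive Complex 1, which keeps developmental genes silent. Its SAM domain assembles PH molecules head to tail, and the ML mutation disrupts this assembly in a dominant negative manner. MACC is the slope of released nucleosomal reads over the MNase titration, and the study reads a higher score as more accessible chromatin. In an arm of this kind, gene-rich euchromatin lies between a distal telomere, which in *Drosophila* is built from retrotransposon arrays, and pericentromeric heterochromatin. No gene annotation or sequence of dm3 was used here, so the positions below carry no gene names and no sequences.

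On this arm, most bins that differed between PH-ML and S2 were more accessible in PH-ML. Of the 156 bins listed against S2, 119 were PH-ML over S2 and 37 were S2 over PH-ML. This is 0.218% of the bins of the arm, where 0.174% of all spanned bins are called. Without the first 100 kb of the arm, 110 bins remained, or 5.14 per Mb, beside 5.55 per Mb in the rest of the series, which keeps its chromosome ends. By direction, 0.166% of the arm was PH-ML over S2 (0.129% of all spanned bins) and 0.0516% was S2 over PH-ML (0.0452% of all). The share higher in PH-ML was 76.3% (69.0% to 82.3%) on the arm and 73.5% (70.0% to 76.8%) in the rest of the series, and these intervals overlap.

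The comparison of PH-WT–expressing cells with S2 cells had its majority on the other side. Of 265 listed bins, 63 were PH-WT over S2 and 202 were S2 over PH-WT. They make up 0.370% of the arm, where 0.305% of all spanned bins are called. The bins higher in PH-WT were 0.0879% of the arm (0.0721% of all spanned bins), and those higher in S2 were 0.282% (0.233% of all). The share higher in PH-WT was 23.8% (19.0% to 29.3%) on the arm, against 23.6% (21.2% to 26.1%) in the rest of the series.

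PH-ML against PH-WT gave 1237 listed bins on the arm, with nearly equal numbers in each direction. There were 600 bins with PH-ML over PH-WT and 637 with PH-WT over PH-ML. The list covers 1.73% of the arm and 1.49% of all spanned bins. Bins higher in PH-ML were 0.837% of the arm (0.788% of all spanned bins) and bins higher in PH-WT were 0.889% (0.707% of all). The share higher in PH-ML was 48.5% (45.7% to 51.3%) on the arm, against 53.6% (52.3% to 54.9%) in the rest of the series. These intervals do not overlap, but neighboring bins are counted separately in them and no test across cultures stands behind the difference. The rest of the series also takes in sequences outside the large chromosome arms, so it is not a set of like euchromatin. Over whole sequences the share was 49.3% on 3L, 57.6% on 2L, 42.4% on 2R, 47.3% on 3R and 55.4% on X. The arm thus lay within the range of the other large chromosomes.

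The 3 comparisons thus gave 7.26, 12.3 and 57.5 listed bins per Mb of the arm, in the order PH-ML against S2, PH-WT against S2, and PH-ML against PH-WT. The rest of the series had 5.55, 9.78 and 48.4 per Mb. With its first 100 kb left out, the arm had 5.14, 12.4 and 55.6 per Mb, the first of which is below the rest of the series. That rest keeps its own chromosome ends and takes in sequences outside the large arms. The other large arms were counted over their whole sequence, so whole 3L is set beside them. For PH-ML against S2 whole 3L had 7.03 per Mb, with 4.91 on 2L, 4.07 on 2R, 6.99 on 3R and 3.12 on X. The 5.14 per Mb left without the first 100 kb is above 2L, 2R and X, which keep their ends. For PH-ML against PH-WT whole 3L had 55.2 per Mb, with 55.6 on 2L, 48.0 on 2R, 60.9 on 3R and 30.7 on X. For PH-WT against S2 whole 3L had 11.8 per Mb, above the 8.84 to 10.4 per Mb of those 4 chromosomes.

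**Figure D1:**
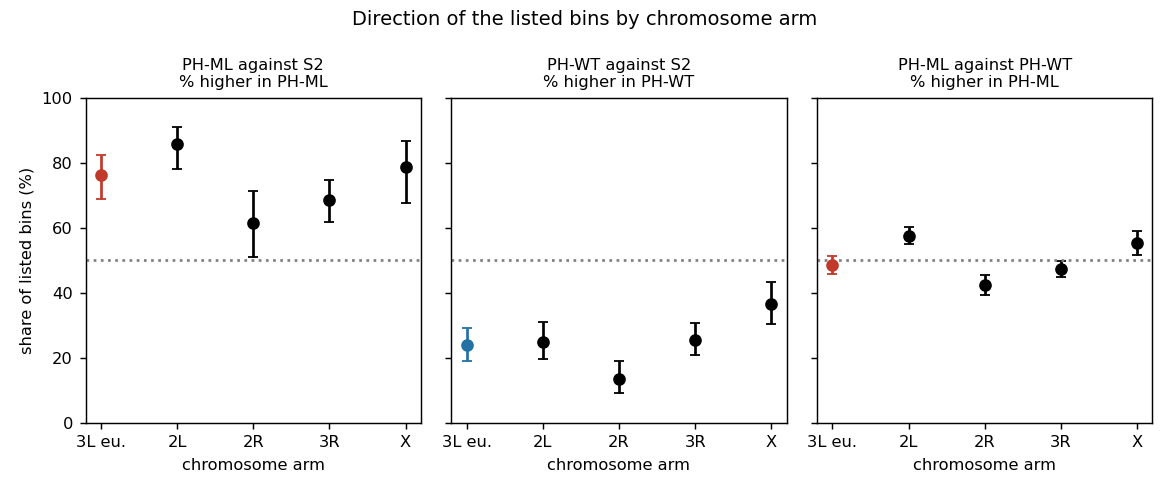
Share of listed bins (%) that were higher in the first-named line, for 3L euchromatin (colored) and for the whole sequences of 2L, 2R, 3R and X (black), one panel per comparison. Points are shares and bars are 95% Wilson intervals; on 3L the shares were 76.3%, 23.8% and 48.5%, and the dotted line marks 50%.

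The listed bins were spread unevenly along the arm. In PH-ML against S2, the 21 full windows of 1 Mb held from 0 to 67 bins with a median of 4, and 4 windows were empty (from 1 to 2, 6 to 7, 13 to 14 and 15 to 16 Mb). The window from 0 to 1 Mb had 57 bins PH-ML over S2 and 10 in the other direction. The window from 3 to 4 Mb followed with 15 and 2. These 2 windows held 84 of 155 bins, or 54.2%. PH-ML was ahead in 11 windows and S2 in 6.

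In PH-WT against S2 no full window was empty, with 2 to 38 bins and a median of 10. The fullest were from 3 to 4 Mb, with 7 bins PH-WT over S2 and 31 S2 over PH-WT, and from 8 to 9 Mb, with 4 and 31. The window from 13 to 14 Mb had the fewest, 1 in each direction, and the windows from 6 to 7 Mb and from 12 to 13 Mb had 3 each. The majority on the S2 side was present in 18 of 21 windows. PH-WT was ahead in 2 windows, which were from 11 to 12 Mb, with 7 bins PH-WT over S2 and 3 in the other direction, and from 15 to 16 Mb, with 3 and 1.

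PH-ML against PH-WT filled every window, with 16 to 151 bins and a median of 48. The windows from 0 to 1 Mb and from 3 to 4 Mb were again the fullest. The first had 99 bins PH-ML over PH-WT and 52 PH-WT over PH-ML, and the second had 79 and 52. The fewest were found from 6 to 7 Mb, with 7 and 9, and from 13 to 14 Mb, with 6 and 15. PH-ML was ahead in 7 windows and PH-WT in 14. The windows differed in balance: from 10 to 11 Mb there were 29 bins PH-ML over PH-WT and 6 PH-WT over PH-ML, whereas from 15 to 16 Mb there were 2 and 26. The last 2 windows were picked after their values were seen.

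**Figure D2:**
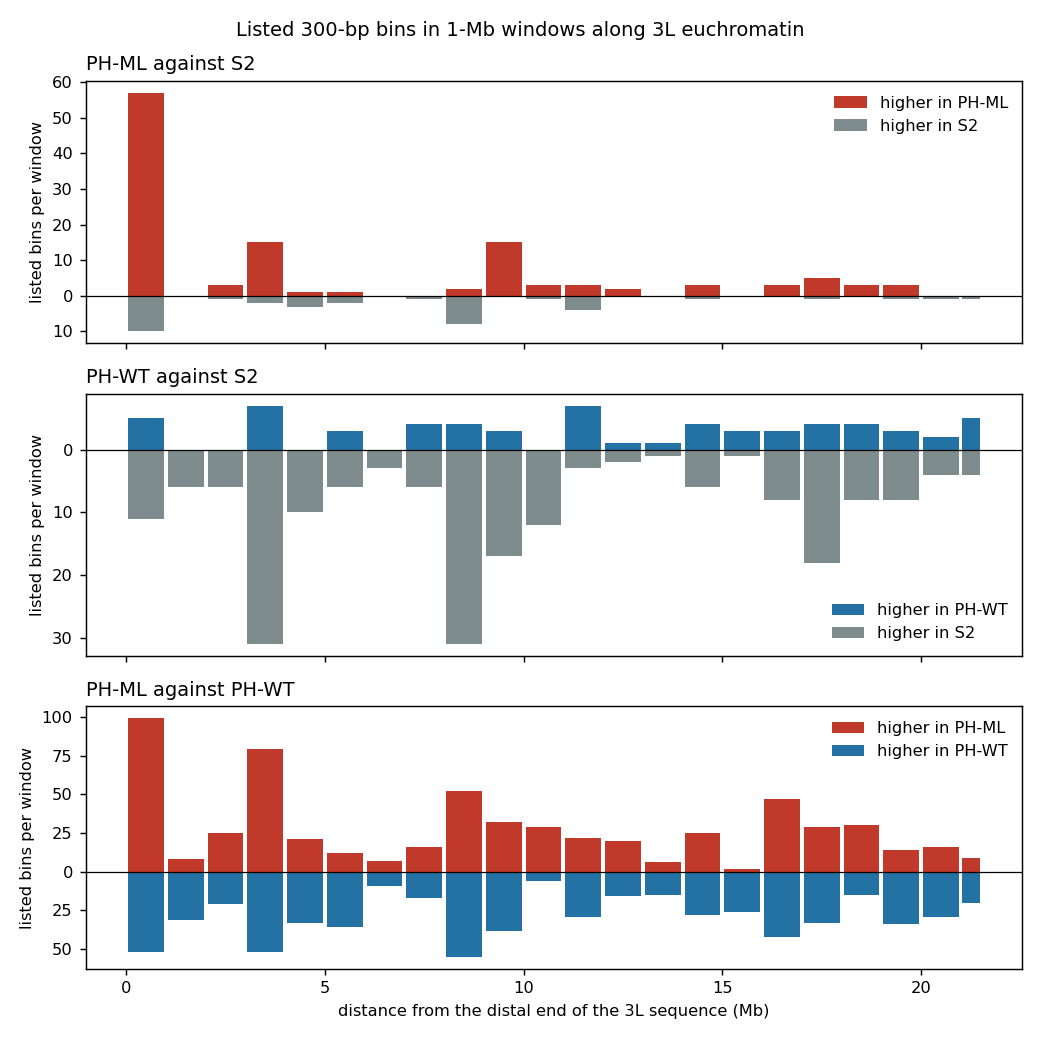
Listed bins per 1-Mb window (the last is 0.5 Mb wide) against the distance from the distal end of the 3L sequence in Mb; bars above 0 count bins higher in the first-named line and bars below 0 count bins higher in the other. The distal window held 57 of the 119 bins PH-ML over S2, and bins S2 over PH-WT peaked at 31 in the windows from 3 to 4 Mb and from 8 to 9 Mb.

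The distal end of the arm was the densest part in both comparisons of PH-ML. From the first base to 19800, 46 of 66 bins were PH-ML over S2, or 69.7% (57.8% to 79.4%), and none was S2 over PH-ML. In PH-ML against PH-WT 46 of these 66 bins were called as well, all of them PH-ML over PH-WT. In PH-WT against S2 none of the 66 bins was listed. The calls were spread evenly over the stretch: the first 33 bins had 24 calls in either comparison of PH-ML, and the next 33 bins had 22.

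The 46 bins formed 15 runs of adjacent bins. The longest covered 10 bins, from 10201 to 13200. It was followed by 8 bins from 4501 to 6900 and 7 bins from 901 to 3000, and the 2 remaining runs of 3 or more bins lay from 8101 to 9000 and from 16801 to 17700. The first 2 are the longest of the arm for this direction, and the third shares its length with a run from 9374701 to 9376800. Of the calls in the stretch, 43 bins were listed in both comparisons, 3 only against S2 and 3 only against PH-WT.

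Past 19800 the calls stopped. The next listed bin of any comparison starts at 99601, after 79.8 kb without a call, and is the only listed bin in the rest of the first 100 kb. The distal 100 kb held 38.7% (30.4% to 47.6%) of the arm's 119 bins PH-ML over S2. Counted as runs of adjacent bins the share was 20.3%, and with bins within 1 kb joined the stretch became 1 of 52 regions (1.92%). Without them 73 bins were PH-ML over S2 and 37 were S2 over PH-ML, a share of 66.4% (57.1% to 74.5%). Calls at the chromosome end were not particular to this arm. The first 100 kb of 2L had 19 bins PH-ML over S2 and none in the other direction, with 24 PH-ML over PH-WT and 3 PH-WT over PH-ML. The last 100 kb of 3R, counted back from its last listed bin, had 8 and 0 against S2, and 23 PH-ML over PH-WT and 1 PH-WT over PH-ML. The same length of 2R had 2 bins PH-ML over S2, and X had none.

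Joining listed bins of any comparison whose starts lie within 10 kb gave 406 groups, of which 196 were a single bin. Only 6 groups had 25 or more bins, a minimum set after the groups were seen. These dense stretches span 1122 bins, or 1.57% of the arm. They held 84 of the 119 bins PH-ML over S2 (70.6%) and 19 of the 37 S2 over PH-ML (51.4%). They also held 9 of 63 bins PH-WT over S2 (14.3%) and 64 of 202 S2 over PH-WT (31.7%). Of the calls between the PH-expressing lines, they held 179 of 600 PH-ML over PH-WT (29.8%) and 86 of 637 PH-WT over PH-ML (13.5%).

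In longer segments, the density of PH-ML against S2 was 18.4 per Mb from 0 to 5 Mb, 5.80 from 5 to 10 Mb, 3.40 from 10 to 15 Mb, 3.20 from 15 to 20 Mb and 1.33 from 20 to 21.5 Mb. Without the dense stretches the densities were 2.93, 0.819, 3.40, 3.20 and 1.33 per Mb, so the decline rested on calls within them. The stretches were picked for their many calls, and all lie before 10 Mb. Leaving them out lowers the first 2 segments by construction in every comparison. The values without them therefore cannot tell whether density declines along the arm. PH-WT against S2 had 15.2, 15.4, 7.40, 12.0 and 10.00 per Mb in these segments, and 7.40 to 12.0 without the stretches. PH-ML against PH-WT had 84.2, 54.8, 39.2, 54.4 and 49.3, and 39.1 to 54.4 without the stretches. The share with PH-ML over S2 was 82.6%, 62.1%, 64.7% and 87.5% in the first 4 segments, and neither of the 2 bins of the last was PH-ML over S2. Outside the stretches it was 64.3% of 14 bins from 0 to 5 Mb and 25.0% of 4 from 5 to 10 Mb. The share with PH-WT over S2 was 15.8% (9.27% to 25.6%), 18.2%, 35.1%, 28.3% and, over 15 bins, 46.7% (24.8% to 69.9%). Outside the stretches its first 2 values were 7.50% and 35.0%. The share with PH-ML over PH-WT was 55.1% (50.3% to 59.8%), 43.4%, 52.0%, 44.9% and 33.8% (24.0% to 45.1%). Without the stretches the first of these was 45.6%, on the other side of an even split, and the second was 33.0%.

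**Figure D3:**
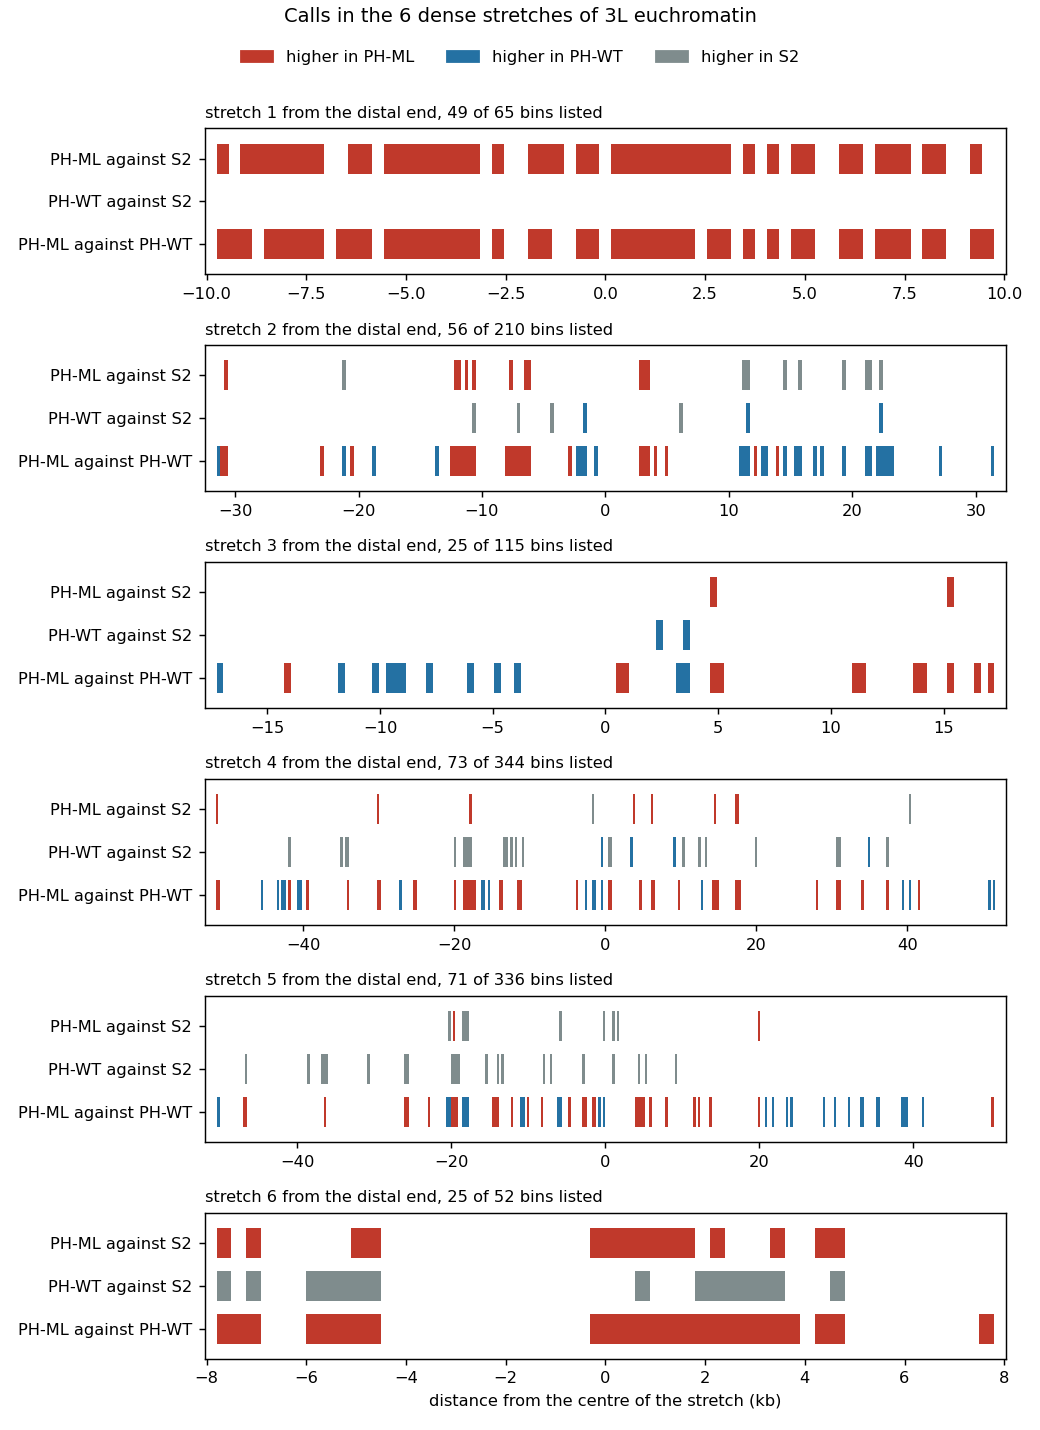
Calls in the 6 dense stretches, counted from the distal end, against the distance from the centre of each stretch in kb; each mark is a 300-bp bin, colored by the line with the higher MACC, with a row for each comparison. Stretches 1 and 6 had calls between PH-ML and PH-WT in a single direction (46 and 25 bins), and stretches 2 to 5 had both.

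The second stretch, chr3L:606301-669300, was split by direction. In its distal side, up to 644100, 11 bins were PH-ML over S2 and 1 was S2 over PH-ML, and 24 were PH-ML over PH-WT and 8 were PH-WT over PH-ML. In its proximal side, from 648601, no bin was PH-ML over S2 and 8 were S2 over PH-ML, and 2 were PH-ML over PH-WT and 20 were PH-WT over PH-ML. Runs of 7 bins with PH-ML over PH-WT lay at 625201 to 627300 and at 629701 to 631800. A run of 5 bins with PH-WT over PH-ML, one of the 3 longest of the arm in that direction, lay at 659701 to 661200. Few bins of this stretch were listed for PH-WT against S2, with 3 PH-WT over S2 and 4 S2 over PH-WT. The places where the stretches are divided were chosen from the calls, so the split is a description.

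The third stretch, chr3L:3218101-3252600, and the fourth, chr3L:3368101-3471300, lie in the window that was among the fullest of all 3 comparisons. The third was split as well: up to 3231600, 1 bin was PH-ML over PH-WT and 10 were PH-WT over PH-ML, and from 3235801 there were 11 and 2. The fourth had mixed calls between the PH-expressing lines, 39 PH-ML over PH-WT and 19 PH-WT over PH-ML. It had 8 bins PH-ML over S2 and 2 S2 over PH-ML. It also had 4 bins PH-WT over S2 and 23 S2 over PH-WT, of which 10 fell between 3399601 and 3408900. Within these, 4 adjacent bins from 3400801 to 3402000 were S2 over PH-WT, and 6 from 3400801 to 3402600 were PH-ML over PH-WT.

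The fifth stretch, chr3L:8641501-8742300, had no bin PH-WT over S2 and 22 bins S2 over PH-WT, the largest cluster of that direction on the arm. It was also the only one of the 6 stretches with S2 ahead of PH-ML, with 2 bins PH-ML over S2 and 8 S2 over PH-ML. The longest run of the arm with S2 over PH-ML, 3 bins from 8673301 to 8674200, lies in it. Up to 8712000, 30 bins were PH-ML over PH-WT and 12 were PH-WT over PH-ML. Past this point the order turned, and between 8712601 and 8733300 all 15 listed bins were PH-WT over PH-ML, with none listed against S2.

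The sixth stretch, chr3L:9367201-9382800, had calls in a single direction within each comparison. Of its 52 bins, 25 were PH-ML over PH-WT and none was the reverse. In the comparisons with S2, 15 bins were PH-ML over S2 and none was S2 over PH-ML, whereas no bin was PH-WT over S2 and 15 were S2 over PH-WT. The longest run of the arm between PH-ML and PH-WT is found here, 14 bins from 9374701 to 9378900. The longest runs with S2 over PH-WT are here too, namely 6 bins at 9376801 to 9378600 and 5 at 9369001 to 9370500. Between 9370500 and 9374701 no bin was listed, so the calls form a distal and a proximal block.

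Outside these stretches the largest cluster of a single direction was chr3L:5104501-5115000. There none of 35 bins was PH-ML over PH-WT and 15 were PH-WT over PH-ML. Against S2, 2 of its bins were S2 over PH-ML and 2 were PH-WT over S2. Other runs of 5 bins with PH-WT over PH-ML lay at 4137901 to 4139400 and at 4905001 to 4906500. Of the 5 bins of the run at 4905001, 3 were also S2 over PH-ML.

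Bins PH-WT over S2 had no clusters of this size. The 63 bins formed 57 runs, none longer than 2 bins, and 6 runs had this length. Their largest clusters were of 3 bins, chr3L:3419101-3429000 and chr3L:21002101-21008100, and 37 of the 63 bins (58.7%) had no other bin of this direction within 10 kb. The median distance to the next such bin was 149 kb. Of the 202 bins S2 over PH-WT, 22.8% had no other bin of their direction within 10 kb, and the median distance was 3.90 kb.

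For the remaining directions the median distance was 0.600 kb for PH-ML over S2 and 22.2 kb for S2 over PH-ML. It was 3.30 kb for PH-ML over PH-WT and 6.30 kb for PH-WT over PH-ML. Most runs were single bins in every direction, from 75.7% of runs for PH-ML over S2 to 89.5% for PH-WT over S2. Runs of 3 or more bins numbered 31 for PH-ML over PH-WT and 28 for PH-WT over PH-ML, but the longest had 14 bins in the first direction and 5 in the second.

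Neighboring calls shared a direction over short distances. In PH-ML against PH-WT, the next listed bin was adjacent in 313 cases and had the same direction in 310 of them (99.0%). At 1 to 10 kb, from start to start, the share was 63.7% of 383 pairs, and at 10 to 100 kb it was 57.9% of 342. Leaving out the dense stretches gave 99.5% for adjacent bins and 63.8% at 1 to 10 kb, beside 50.8% for any pair of listed bins. In PH-ML against S2 all 50 adjacent pairs agreed in direction, as did 76.0% of 25 pairs at 1 to 10 kb, where any pair agreed in 63.6%. Most of these pairs lie in the dense stretches, outside which 2 adjacent pairs and 5 pairs at 1 to 10 kb remained, beside 54.3% for any pair. In PH-WT against S2 all 49 adjacent pairs had the same direction and 82.4% of 74 pairs at 1 to 10 kb did, again beside 63.6% for any pair. Outside the stretches all 27 adjacent pairs and 85.7% of 42 pairs at 1 to 10 kb agreed, beside 59.4%.

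**Figure D4:**
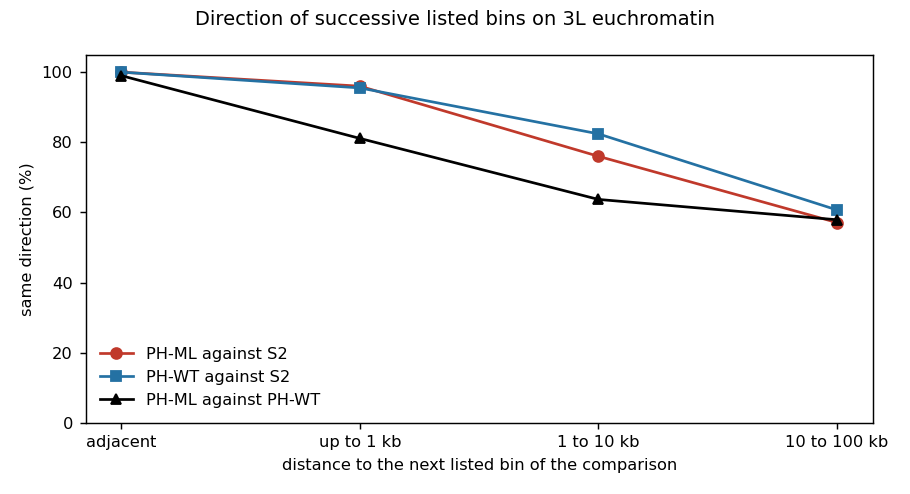
Share (%) of successive listed bins with the same direction, by the distance between their starts, for each comparison on 3L euchromatin. All 3 lines start at 99.0% or above for adjacent bins and lie between 57.1% and 60.7% at 10 to 100 kb.

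The 3 comparisons share libraries in pairs, so calls of the same bin in several of them are described and not read as independent. Of the 1365 listed bins, 1092 were on 1 list, 253 on 2 and 20 on all 3. On the list of PH-ML against PH-WT, 966 of 1237 bins (78.1%) were on neither list with S2, 409 of them PH-ML over PH-WT and 557 PH-WT over PH-ML. The rest of the series had 79.6%, within the interval of the arm (75.7% to 80.3%). Among bins on 2 lists, PH-ML was above the other two lines in 100 and below them in 28, and PH-WT was above the other two in 47 and below them in 76. These were 7.33%, 2.05%, 3.44% and 5.57% of the arm's listed bins. The same calls made up 5.79%, 2.00%, 2.90% and 5.94% of all listed bins of the series. In all, 115 bins were both PH-ML over S2 and PH-ML over PH-WT, which is 96.6% of the first list and 19.2% of the second. The first of these shares was 96.5% in the rest of the series. Likewise, 91 bins were both S2 over PH-WT and PH-ML over PH-WT, or 45.0% (38.3% to 51.9%) of 202 and 15.2% of 600. In the rest of the series, 56.5% (53.2% to 59.7%) of bins S2 over PH-WT were shared in this way. On the arm 71.3% were shared if a call within 1 kb was counted. Another 109 bins were only S2 over PH-WT, which is 7.99% of the arm's listed bins beside 6.48% of all listed bins.

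PH-ML over S2, S2 over PH-WT and PH-ML over PH-WT were called together in 15 bins, and the 3 opposite calls in 5. The 15 bins are 1.10% of the arm's listed bins, beside 1.86% of all listed bins of the series. For the 5 bins these shares are 0.366% and 0.464%. Of the 15 bins, 8 lie in the sixth stretch, starting at 9367201, 9367801, 9369901, 9370201, 9375601, 9377101, 9378301 and 9379501. The others start at 627001, 3090901, 3196501, 3401701, 8672101, 17729701 and 19110901. The 5 bins with the opposite calls start at 649201, 660001, 7860301, 11555401 and 21002401, and the first 2 of these are in the proximal side of the second stretch. At 2 bins, starting at 8692801 and 10690501, S2 was above both PH-expressing lines, and at no bin of the arm was it below both. The 2 bins are 0.147% of the arm's listed bins, beside 0.0663% of all. Over the whole series each set of calls with S2 below both made up at most 0.0530% of the listed bins.

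The longest part of the arm without a listed bin of any comparison was 394 kb, from 13506601 to 13900200. The next were 309 kb, from 15156301 to 15465300, and 249 kb, from 14214601 to 14463600, so that all 3 lie between 13 and 16 Mb. At the proximal limit the last bin inside was 21002401 for PH-ML against S2 (higher in S2), 21328201 for PH-WT against S2 (higher in PH-WT) and 21477001 for PH-ML against PH-WT (higher in PH-ML). The first bins outside were 22094401 (higher in S2), 22068601 (higher in PH-WT) and 21500101 (higher in PH-WT). Beyond the limit, 3L had 5.40, 7.76 and 38.5 listed bins per Mb in these comparisons, each below the euchromatic part. The first of these rests on 16 bins, and it is above the 5.14 per Mb of the euchromatic part without its first 100 kb.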

How the data were processed

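MNase-titration-seq was carried out by the authors on 30 libraries of PH-ML–expressing, PH-WT–expressing and S2 cells. According to the paper's methods, paired-end reads were mapped to dm3 with Bowtie, filtered for unique hits, mismatches, insert size and positions with extreme tag numbers, and counted in 300-bp bins. Frequencies normalized to library size were fitted over the titration, and the GC-corrected slope is the MACC score. The deposited lists name the line with the higher MACC in each called bin (3 lists) or mark a bin with a constant (5 lists). Each of the 5 lists matches the bins of its direction on the 3 lists exactly, and none covers PH-ML over PH-WT. The test and threshold of the calls are not given in the sources used here, and calls pool both experiments, so a weak call cannot be told from a strong one.

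Calls were read with Python 3.11.15 and intervals computed with scipy 1.17.1; joining and counting were tested on simulated bins. The number of bins the authors tested is unknown: shares use the bins up to the last listed position of each chromosome. Named regions are the longest runs, the largest clusters (10 kb), the fullest and emptiest windows, the longest empty part, the distal runs, the bins called in all 3 comparisons, and the bins at the limit. Members and rules were chosen with earlier results of these data known. Alternatives were merging bins, other limits of the arm, single-direction lists, requiring an adjacent bin, and sharing within 1 kb. Leaving out the dense stretches was added after the data were seen.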

Additional observations from a re-analysis of the deposited data

How the results depend on the processing

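Of 73 values recomputed for 9 results, 51 stayed within the interval of the main value, or within 1.5 times for densities, and no majority against S2 changed sides. Some of the 51 could not move. Each of the 5 single-direction lists matches the main list for its direction exactly, and bins PH-ML over PH-WT have no such list. Their use could therefore not change any of the 9 results. The first 100 kb held no bin of PH-WT against S2, so leaving it out could not change shares of those bins. No bin PH-ML over S2 lay from 20 to 21.5 Mb. Ending the arm at 20000000 could therefore not change the distal share of these bins or their share also PH-ML over PH-WT. Merging bins within 1 kb gave 66.7% PH-ML over S2, 29.7% PH-WT over S2, densities of 3.63 per Mb for PH-ML against S2 and 36.2 for PH-ML against PH-WT, and 1.92% at the distal end, since the distal bins become 1 region of 52. Merging adjacent bins put 20.3% of runs there. Without the first 100 kb, 66.4% were PH-ML over S2. Requiring an adjacent bin of the same direction gave shares of 87.5%, 14.6% and 53.4% and densities of 3.35, 3.81 and 23.5 per Mb (PH-ML against S2, PH-WT against S2, PH-ML against PH-WT), with 65.1% at the distal end. Counting a bin within 1 kb as shared gave 100% of bins PH-ML over S2 and 71.3% of those S2 over PH-WT. Without the dense stretches, 66.0% were PH-ML over S2 at 2.50 per Mb, 43.3% (40.2% to 46.4%) were PH-ML over PH-WT, and the shared bins were 100% and 37.7%. The distal share was then 0%, which was fixed, since the first stretch holds all bins PH-ML over S2 of the distal 100 kb. No paired analysis was possible because the lists do not separate the experiments; for the same reason no library could be left out. A stricter threshold could not be applied to lists without scores.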
